A study of Mus musculus with 10 samples.

Results

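Known long non-coding RNAs (lncRNAs) that were plentiful in mature mouse sperm and scarce in testes were read across all 10 libraries of the series. They were selected on the control libraries: a known lncRNA transcript was taken when it had an expected count of at least 20 in each of control sperm pools 2, 3 and 4 and under 20 in both control testes samples, with 9 genes left out by name. This gave 92 transcripts of 90 genes, out of 51610 known lncRNA transcripts and 84289 transcripts of all kinds that the tables list. In all, 1122 known lncRNAs had at least 20 counts in the 3 pools. Outside the genes left out, 1010 of them also had at least 20 counts in a control testes sample, and these 1010 served as the comparison set. Another 4 transcripts met the limits but belong to 2 of the genes left out. An expected count is an estimate of how many read pairs a transcript gave, and it need not be a whole number.

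The samples came from C57BL/6 mice of 3 to 5 months according to the labels. Cadmium mice received 1 intraperitoneal injection of CdCl2 at 3 mg per kg and control mice received saline, and tissues were taken on day 35. The labels give 50 mice in each arm, and the study's methods give another number of control mice and another age range. The control arm gave 4 sperm pools and 2 testes samples, and the cadmium arm gave 2 of each. A control sperm pool combined the sperm of several mice, and sperm were collected from the cauda epididymis and vas deferens and treated with a lysis buffer that removes somatic cells. A testes sample is whole tissue and holds germ cells of every stage together with Sertoli, Leydig and other somatic cells. The study set control sperm pool 1 aside because its correlation with the other sperm pools was below its limit. Pool 1 took no part in choosing the 92 transcripts. Neither did the 4 cadmium libraries, so the limits used no value of these 5 libraries, although results of all 10 were known when the 92 were proposed.

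LncRNAs are transcripts longer than the small RNAs that are not translated into protein, and the testis is known for expressing an unusually large number of them. Sperm stop transcribing as their chromatin is packed with protamines during spermiogenesis, so the RNA of a mature sperm is either held over from earlier germ cells or acquired in the epididymis. The lncRNAs described here carry NONCODE identifiers (NONMMUT for a transcript, NONMMUG for a gene) and have no assigned function in the sources used here. Their positions and sequences are likewise not given in the sources used here, so they are described by identifier, length in base pairs (bp) and level.

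The expected counts of a library summed to between 366455 and 1058017 in the control sperm pools, to 1155491 and 1254477 in the cadmium sperm samples, and to between 2606086 and 2866856 in the 4 testes samples. Levels of 1 lncRNA in different libraries are therefore given as CPM, the count per 1000000 counts of the library, and levels of different lncRNAs as FPKM, the authors' value scaled to both length and depth. The limit of 20 counts stood for 18.9, 54.6 and 39.4 CPM in sperm pools 2 to 4. In the control testes samples it stood for 6.98 and 7.67 CPM. The choice thus asked for a difference in CPM as well as in counts. Where fewer copies per cell and fewer cells of a kind could give the same bulk value, these libraries cannot tell them apart.

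Marker genes were summed per library to describe the cell types present. The 10 sperm and spermatid genes summed to 144 to 352 CPM in control sperm, 309 to 316 CPM in cadmium sperm and 243 to 302 CPM over the 4 testes samples. Odf1, a sperm tail gene, was at 0 in every sperm library and in both cadmium testes samples. Prm1, which encodes a protamine, had 0 to 10 counts in the sperm libraries and 116 to 128 in testes. Tnp1, Tnp2 and Akap4 were likewise low, with at most 3, 18 and 2 counts in sperm and at least 86, 95 and 23 in testes. Others were not: Prm2 had 45 to 291 counts in sperm and 220 to 465 in testes. Tssk6 had 7 to 79 in sperm and 24 to 37 in testes, and Catsper2 0 to 32 and 6 to 15. The sperm libraries are the shallower ones. The 4 spermatogonial genes and the 3 listed spermatocyte genes of 4 were at 0 in control sperm and reached 1.59 and 3.46 CPM in cadmium sperm, against at most 9.98 CPM in testes. The 10 epididymal epithelium genes reached 9.84 CPM in control sperm and 3.99 CPM in cadmium sperm, with 9 of the 10 at 0 in control sperm, and 22.9 CPM in cadmium testes sample 2, where Adam7 had 33 counts. Leukocyte genes, 6 of 8 listed, reached 4.73 CPM in control sperm, 8.77 CPM in cadmium sperm and 5.58 CPM in testes. The 8 Sertoli genes reached 28.3 CPM in control sperm, 10.3 CPM in cadmium sperm and 8.72 CPM in testes. The 28.3 CPM came from 12 counts of Amhr2 in pool 1, and 6 of the 8 were at 0 in control sperm, against 1 in control testes. The Leydig genes, 5 of 6 listed, reached 109 CPM in control sperm through Star, 24.7 CPM in cadmium sperm and 65.2 CPM in testes. The 4 epithelium genes reached 24.6 CPM in sperm and 16.9 CPM in testes, smooth muscle and connective tissue genes, 4 of 5 listed, reached 1.73 and 3.87 CPM, and none of the 3 endothelium and blood genes was listed. Whether other cells contributed to the levels of the 92 lncRNAs was not tested.

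The 92 lncRNAs together held 1.62%, 1.26%, 1.91% and 1.38% of all counts in control sperm pools 1 to 4. In the cadmium sperm samples they held 1.60% and 1.59%. Control testes gave 0.0206% and 0.0236%, and cadmium testes 0.0264% and 0.0311%. Every sperm library lay above every testes library, in the libraries that chose the lncRNAs and in the 5 that did not. The comparison set held 39.02% to 41.9% of the counts in control sperm, 39.6% and 45.1% in control testes, 41.6% and 46.8% in cadmium sperm, and 41.0% and 44.4% in cadmium testes, so that its share was of the same order in both tissues. It was chosen as present in both control tissues, which favours such a result.

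**Figure D1:**
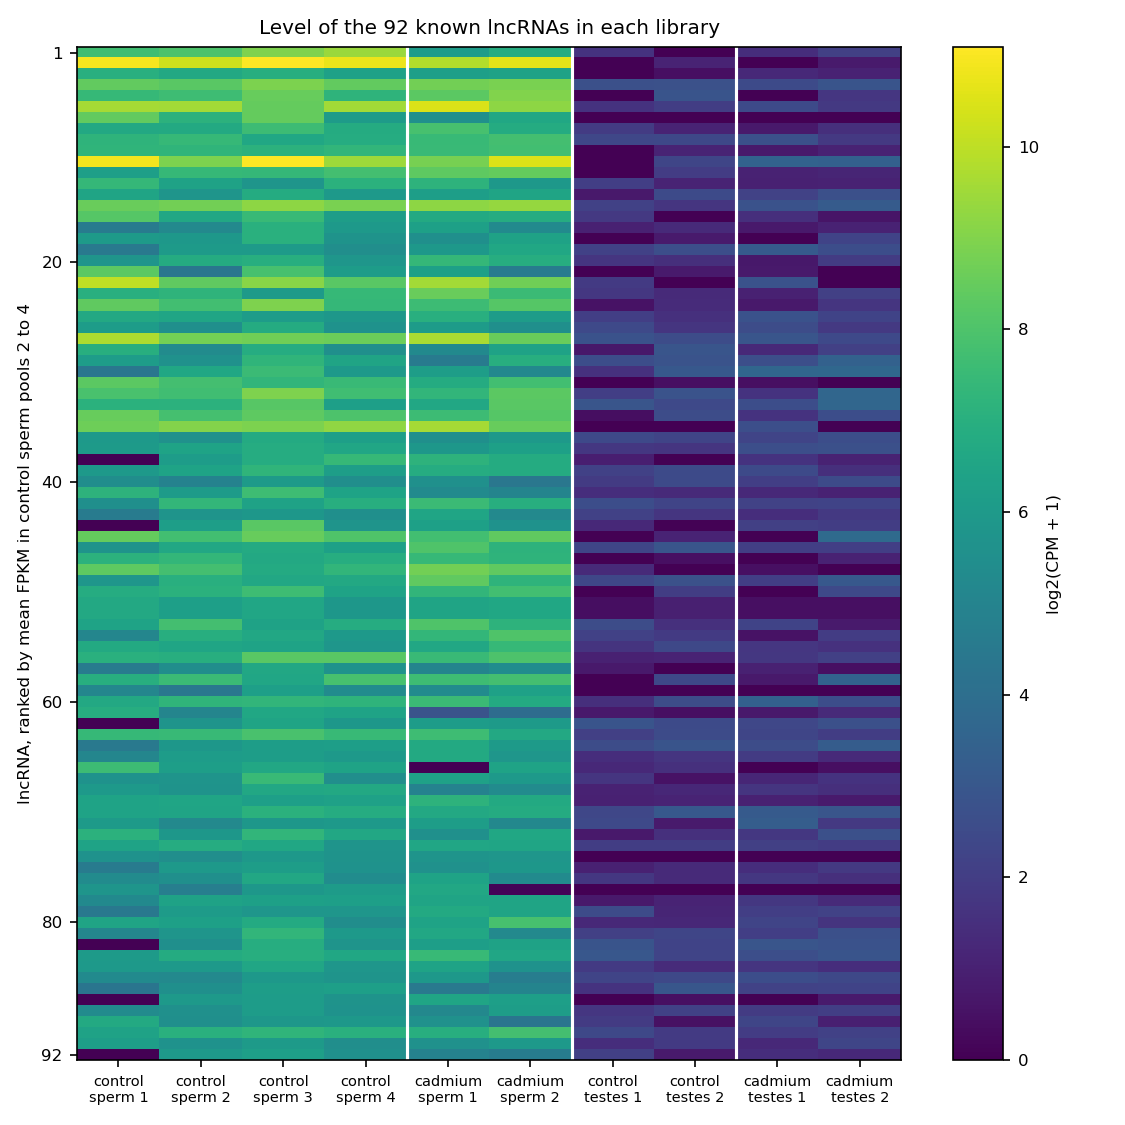
Each row is 1 of the 92 lncRNAs, ranked from the highest to the lowest mean FPKM in control sperm pools 2 to 4, each column is 1 library, and the colour is log2(CPM + 1). The 6 sperm columns are bright and the 4 testes columns dark in nearly every row, and the dark cells among the sperm columns are the 6 lncRNAs at 0 in pool 1 and the lncRNAs at or near 0 in 1 cadmium sperm sample.

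The median lncRNA of the 92 had 84.8, 84.8, 112 and 76.7 CPM in control sperm pools 1 to 4 and 100 and 95.7 CPM in the cadmium sperm samples. Its level in testes was 2.09 and 1.92 CPM for the controls and 2.40 and 2.58 CPM after cadmium. Most of the 92 were not absent from testes: 73 and 81 of them had a count above 0 in the control testes samples and 80 and 83 in the cadmium testes samples. The highest count in any of the 4 testes samples was 0 for 4 lncRNAs, under 3 for 5 more, from 3 to under 10 for 32, from 10 to under 20 for 37 and at least 20 for 14. Low counts in testes were thus more common than none.

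On the FPKM scale the mean level over control sperm pools 2 to 4 was between 6.24 and 1191, the median lncRNA stood at 64.4, and 32 of the 92 were above 100 FPKM. The 12 highest held 47.6% of the summed FPKM of the 92. The highest of all was NONMMUT027011.2 (447 bp, gene NONMMUG016749.2), the only listed transcript of its gene, at 1191 ± 549 FPKM (SD, n = 3). NONMMUT027011.2 had 88, 268, 179 and 354 counts in control sperm pools 1 to 4, 81 and 147 in cadmium sperm, 6 and 0 in testes of controls and 5 and 9 in testes after cadmium. Its lowest sperm library thus stood far above its highest testes library, although the cadmium sperm samples were lower than each control pool in CPM.

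NONMMUT056298.2 (2339 bp, NONMMUG034964.2) was second, at 742 ± 212 FPKM (SD, n = 3), and had the widest gap between the tissues of the leading lncRNAs. It had 833, 1291, 800 and 878 counts in the control sperm pools and 1035 and 2009 in cadmium sperm, against 0 and 3 in testes of controls and 0 and 2 in testes after cadmium. NONMMUT087277.1 (223 bp), the shortest of the 92, had 54, 108, 45 and 41 counts in control sperm, 88 and 105 in cadmium sperm, 0 and 1 in testes of controls and 4 and 3 in testes after cadmium. In CPM it varied little among sperm libraries, from 76.2 to 127.

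NONMMUT010782.2 (893 bp) counted 147, 320, 175 and 175 in control sperm, 496 and 582 in cadmium sperm, 16 and 15 in testes of controls and 13 and 17 in testes after cadmium. It kept a measurable level in all 4 testes samples, far under that of any sperm library. NONMMUT123806.1 (650 bp) counted 73.9, 210, 135 and 74.3 in control sperm and 363 and 628 in cadmium sperm, with 0 and 16.9 in testes of controls and 0 and 6.44 in testes after cadmium, so sample 2 carried all of its testes signal in both arms. NONMMUT005481.2 (548 bp) varied little, at 153, 139 and 155 CPM in pools 2 to 4, 151 CPM in pool 1 and 183 and 212 CPM in cadmium sperm, against at most 1.15 CPM in testes.

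Another pair moved from pool to pool. NONMMUT062267.2 (4350 bp, NONMMUG038403.2) counted 812, 503, 799 and 364 in control sperm, which is 1911, 475, 2180 and 717 CPM, and 447 and 1453 CPM in the cadmium sperm samples. NONMMUT123580.1 (564 bp, NONMMUG077504.1) stood at 341, 139, 352 and 66.9 CPM in control sperm and 46.7 and 96.5 CPM in cadmium sperm. Both were high in control pools 1 and 3 and lower in pools 2 and 4. Pools 1 and 3 both lay above pools 2 and 4 for 24 of the 92 (26.1%) and for 252 of the 1010 comparison lncRNAs (24.95%), and pools 1 and 3 were also the libraries with the smallest totals. The part of depth in that order was not tested.

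**Figure D2:**
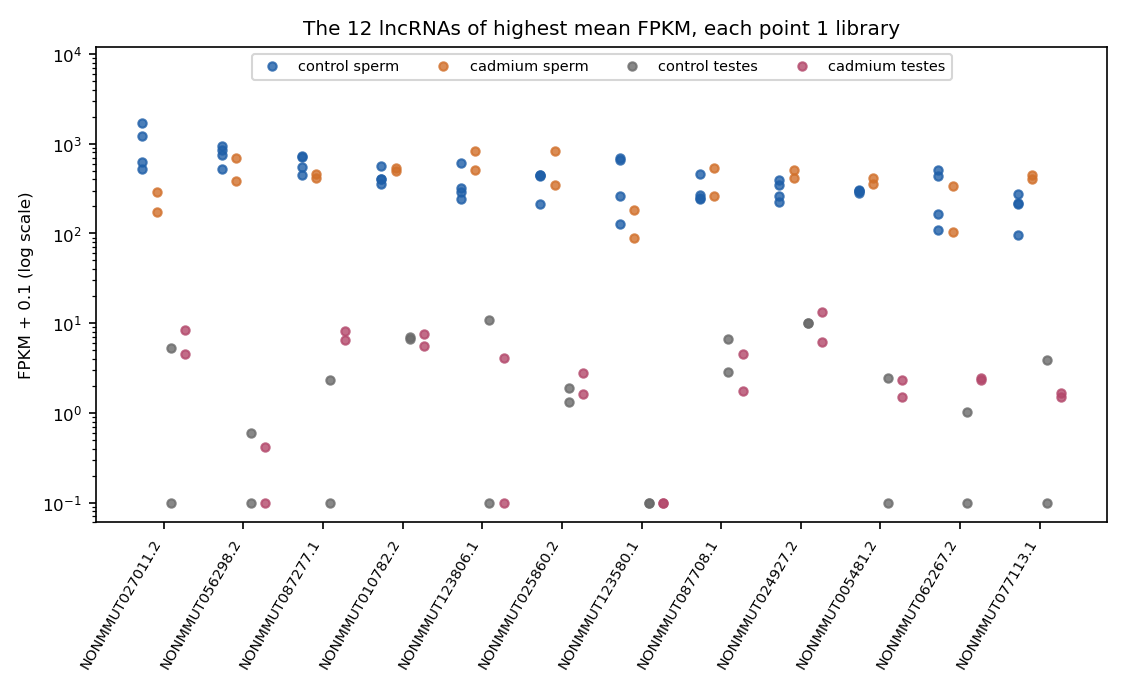
The 12 lncRNAs of highest mean FPKM in control sperm pools 2 to 4 are on the horizontal axis, the vertical axis is FPKM + 0.1 on a log scale, and each point is 1 library coloured by group. For each of the 12 all 6 sperm libraries sit above all 4 testes libraries, and points at the bottom edge are libraries that list the lncRNA at 0.

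The remaining 4 of the leading 12 were NONMMUT025860.2, NONMMUT087708.1, NONMMUT024927.2 and NONMMUT077113.1, with means of 365, 323, 296 and 235 FPKM. Of the 12, 9 were also among the 12 highest in cadmium sperm and 8 among the 12 highest in pool 1, a library that did not choose them. Over the 92, the rank of the mean FPKM in control and cadmium sperm was similar, with a Spearman coefficient of 0.902. This describes 92 transcripts that share libraries and length scaling, and these are not independent replicates. FPKM and length were inversely related across the 92 (Spearman coefficient -0.644), and the limit of 20 counts lets a short transcript in only at a high FPKM.

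Levels differed among the 3 pools that chose the lncRNAs. The coefficient of variation of CPM over pools 2 to 4 had a median of 33.0% and ran from 1.92% for NONMMUT013010.2 to 104% for NONMMUT105589.1. The highest pool was above the lowest by 1.81-fold at the median, by more than 2-fold for 43 lncRNAs and by more than 4-fold for 5. CPM was highest in pool 3 for 61 lncRNAs, in pool 4 for 16 and in pool 2 for 15. Pool 3 was also the pool where the limit stood highest in CPM. The 2 cadmium sperm samples differed by 1.62-fold at the median and by more than 2-fold for 28, with 45 lncRNAs higher in sample 1 and 47 higher in sample 2. Rank correlations of CPM across the 92 lncRNAs were between 0.404 and 0.869 for pairs of sperm libraries, between 0.465 and 0.743 for pairs of testes libraries, and between -0.267 and 0.159 for a sperm with a testes library. The order of the 92 in sperm was thus not their order in testes.

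Pool 1 gave the first reading outside the choice. Of the 92, 67 (72.8%) had at least 20 counts in pool 1, 19 had fewer and 6 were at 0, while 85.0% of the comparison set had at least 20 counts there and 1.98% were at 0. In CPM, pool 1 lay above the range of pools 2 to 4 for 20 lncRNAs, within it for 35 and below it for 37, and it was above the highest of the 4 testes values for 86. The 6 exceptions were the 6 at 0. The choice took pools 2 to 4 as high, which favours values of pool 1 below them. It took the control testes as low, which favours pool 1 above the testes values. Neither reading was set against a share over all transcripts. The highest relative to the other pools were NONMMUT105589.1 at 314 CPM, NONMMUT113510.1 at 1038 CPM, NONMMUT108338.1 at 285 CPM, NONMMUT043929.2 at 195 CPM and NONMMUT070272.2 at 845 CPM, against means over pools 2 to 4 of 107, 399, 116, 86.9 and 411 CPM.

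Among those at 0 in pool 1, NONMMUT068671.2 (1983 bp), the only listed transcript of its gene, had 77.5, 112 and 26.8 counts in pools 2 to 4 and 89.4 and 62.4 in cadmium sperm. NONMMUT031654.2 (1393 bp) had 56.4, 32 and 29 counts in pools 2 to 4, and its whole gene reached 0.03 counts in pool 1. For the other 4 the gene was present through another transcript. NONMMUT010413.2 (2847 bp) is an example: its gene NONMMUG006542.2 had 160 counts in pool 1, all of them given to NONMMUT010412.2. The remaining genes had 53.1 counts (NONMMUT036607.2), 54 counts (NONMMUT036128.2) and 24 counts (NONMMUT035118.2) in pool 1. A count of 0 in pool 1 allowed a level of up to 7.07 CPM, counting 3 reads as the floor and counting error only.

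The cadmium libraries gave the comparison of sperm with testes in 4 libraries that took no part in the choice. The pattern of at least 20 counts in both cadmium sperm samples and under 20 in both cadmium testes samples was met by 75 of the 92 (81.5%), against 0.837% of all 51610 known lncRNAs. With a limit of 10 counts in place of 20 it was met by 46 of the 92, with a limit of 50 counts by 70, and on counts summed over the gene by 68. The sperm side held for 89 of the 92 and the testes side for 78. The share of all known lncRNAs on either side alone was not computed, so these 2 counts have no background. Of the 1010 comparison lncRNAs, 1006 and 1007 had at least 20 counts in the cadmium sperm samples, and 990 and 972 in the cadmium testes samples. Both cadmium sperm samples exceeded both cadmium testes samples in CPM for 91 of the 92, where the share was 24.8% over the 27299 transcripts tested. The exception was NONMMUT043929.2, with 0 and 106 counts in cadmium sperm and 0 and 1 in cadmium testes. NONMMUT053912.2 was barely apart, with almost no count in cadmium sperm sample 2 and none in cadmium testes.

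In edgeR's quasi-likelihood test on these 4 libraries, 90 of the 92 (97.8%) were higher in cadmium sperm at an adjusted p under 0.05 and a difference over 2-fold, where 15.1% of the 27299 transcripts tested were called higher. None of the 92 was called lower, where 13.9% of all transcripts were, and every fitted difference was above 0. In the comparison set, 341 of 1010 (33.8%) were called higher and 89 lower. That set was chosen as having at least 20 counts in a control testes sample and the 92 as having under 20. The choice thus favours a smaller share and a smaller difference in the comparison set. Log2 differences of the 90 lay between 2.30 and 11.78, their median being 5.60, beside medians of 0.62 in the comparison set and -0.29 over all transcripts tested. The other 2, NONMMUT043929.2 and NONMMUT053912.2, did not reach 1 FPKM in 2 of the 4 libraries and were not tested. Of the 90, 22 were under 1 FPKM in both testes samples and so entered the test through sperm alone. With no filter on level, all 92 were tested and 92 were called higher. Leaving out either cadmium testes sample leaves a single testes library. The calls were lost without sample 1 and kept without sample 2. Log2 differences of the 90 lay between 1.96 and 12.87 without sample 1, and between 2.42 and 14.33 without sample 2.

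**Figure D3:**
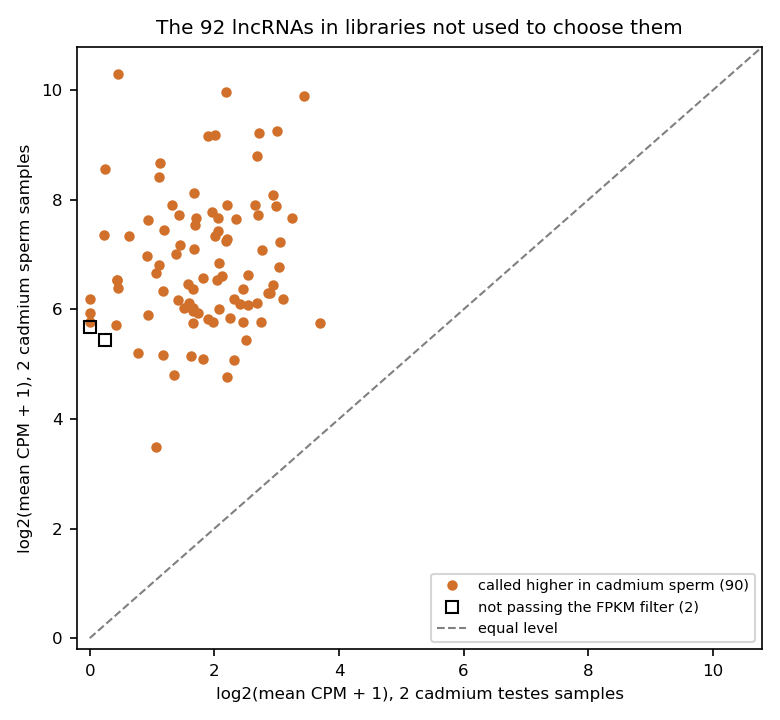
Each point is 1 of the 92 lncRNAs, with log2(mean CPM + 1) over the 2 cadmium testes samples on the horizontal axis and over the 2 cadmium sperm samples on the vertical axis, and the broken line marks equal levels. All 92 points lie above the line, and the 2 open squares are the lncRNAs that did not pass the filter of 1 FPKM.

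The 6 lncRNAs with the smallest adjusted p were NONMMUT026815.2, NONMMUT056298.2, NONMMUT077113.1, NONMMUT012759.2, NONMMUT005481.2 and NONMMUT025860.2. NONMMUT026815.2 (2562 bp, NONMMUG016622.2) had 484 and 420 counts in cadmium sperm against 1.06 and 0 in cadmium testes, a log2 difference of 10.84 ± 0.96 (SE; adjusted p = 2.45e-09). NONMMUT056298.2 differed by 11.78 ± 1.10 (adjusted p = 4.31e-09), the widest fitted difference of the 90. Counts of 0 to 2 in testes underlie both, so the fitted size rests on very few reads. NONMMUT077113.1 (837 bp), with 376 and 444 counts in cadmium sperm and 3.12 and 3.32 in cadmium testes, differed by 8.46 ± 0.81 (adjusted p = 5.55e-09). Its gene NONMMUG002807.2 was less scarce in testes, with 55 and 46 counts in controls and 60 and 38 after cadmium. Most of these were given to another transcript, NONMMUT004341.2 (1649 bp). On gene sums the fitted difference was smaller than that of the transcript, and the gene was still called higher.

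NONMMUT012759.2 (1789 bp) had 130 and 269 counts in cadmium sperm and 1 and 0 in cadmium testes. NONMMUT025860.2 (1742 bp) had 1632 and 745 counts in cadmium sperm and 13 and 7 in cadmium testes, with a log2 difference of 8.31 ± 0.84 (adjusted p = 1.55e-08). Its testes counts were the most substantial of these 6 transcripts, and its sperm and testes libraries still did not overlap.

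At the other end stood the 6 lncRNAs with the highest FPKM in cadmium testes. NONMMUT106294.1 (363 bp) reached 20.6 FPKM there, with 22 and 14 counts, against 68 and 120 counts in cadmium sperm, a log2 difference of 3.86 ± 0.64 (adjusted p = 2.42e-05). With pool 1 added to the sperm side its adjusted p was 0.0505. NONMMUT132526.1 (383 bp) had 10 and 15 counts in cadmium testes and 85 and 112 in cadmium sperm, a log2 difference of 4.36 ± 0.66 (adjusted p = 7.05e-06). These are short transcripts, and 20 reads on such a length already make a sizeable FPKM.

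NONMMUT032187.2 (1128 bp, NONMMUG019802.2) showed the smallest difference of the 90, with 81.5 and 44.0 counts in cadmium sperm and 33.7 and 32.6 in cadmium testes, a log2 difference of 2.30 ± 0.60 (adjusted p = 0.00403). NONMMUT053413.2 (931 bp) had 26 and 153 counts in cadmium sperm and 15 and 27 in cadmium testes, a log2 difference of 3.51 ± 0.72 (adjusted p = 0.000389). Its cadmium sperm sample 1 stood close to the testes samples in counts, and without cadmium sperm sample 2 its adjusted p was 0.0860. NONMMUT024927.2 (472 bp) and NONMMUT124376.1 (624 bp) completed the group, with 9.71 and 8.41 FPKM in cadmium testes and log2 differences of 5.88 ± 0.69 and 4.55 ± 0.65 (adjusted p = 1.29e-07 and 2.83e-06).

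No count in any of the 4 testes libraries was seen for NONMMUT123580.1, NONMMUT122905.1, NONMMUT025296.2 and NONMMUT053912.2. NONMMUT123580.1 had 54 and 121 counts in the cadmium sperm samples and NONMMUT122905.1 (891 bp) had 46 and 101. Against a floor of 3 counts per testes library, NONMMUT123580.1 was at least 66.2-fold higher in cadmium sperm, NONMMUT122905.1 at least 55.7-fold and NONMMUT025296.2 at least 49.8-fold. Of these 4, the first pair are the only listed transcripts of their genes, while the genes of NONMMUT025296.2 and NONMMUT053912.2 did have counts in testes through other transcripts.

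That raises how the counts were divided within a gene. Of the 92 lncRNAs, 54 were the only transcript of their gene that any library lists, and 38 had others, up to 10 transcripts in all for a gene. Whole-number counts in pools 2 to 4 (within 0.005) were found for 47 of the 92 (51.1%), against 52.3% in the comparison set, and a fraction marks reads shared between transcripts. Summed over the gene, control testes reached at least 20 counts for 14 of the 92. In the test of cadmium sperm against cadmium testes on gene sums, 89 of the 90 genes were called higher, 13 of these 14 genes among them, and the log2 differences ran from 1.00 with a median of 5.43. The gene that was not called was NONMMUG019802.2, with 331 and 466 counts in cadmium sperm and 467 and 589 in cadmium testes (log2 difference 1.00 ± 0.56, adjusted p = 0.163).

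NONMMUG019802.2 shows how far a transcript and its gene can part. NONMMUT032187.2 had 5.77 and 18.9 counts in control testes while the gene had 468 and 513, mostly from NONMMUT032182.2 (4022 bp), with 304 and 344. A like division was found in NONMMUG033747.2, the gene with 10 listed transcripts. There NONMMUT054394.2 (5565 bp) had 171, 546, 177 and 305 counts in control sperm and 0 and 0 in control testes, whereas NONMMUT054409.2 (3913 bp) had 0 in the control sperm pools and 410 and 415 in control testes. The gene as a whole had 509 and 520 counts in control testes, and its log2 difference in the cadmium libraries was 2.18 ± 0.61 (adjusted p = 0.00210), against 8.02 ± 0.91 for NONMMUT054394.2 itself.

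For 7 of the 92, in 6 genes, the gene had another listed transcript within 10 bases of the same length, a group chosen after its values were seen. NONMMUT025296.2 (1640 bp) and NONMMUT025295.2 (1647 bp) of NONMMUG015656.2 divided by tissue: the shorter had 21, 46, 22 and 26 counts in control sperm, 60 and 70 in cadmium sperm and 0 in the 4 testes samples, and the longer had 0 in the 6 sperm libraries, 73 and 73 in testes of controls and 78 and 61 in testes after cadmium. In counts their sum was lower in control sperm than in control testes and overlapped between the cadmium libraries, while in CPM each of the 6 sperm libraries lay above each of the 4 testes libraries. On gene sums the log2 difference of NONMMUG015656.2 was 1.36 ± 0.55 (adjusted p = 0.0421).

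NONMMUT043929.2 (2034 bp) and NONMMUT043928.2 (2037 bp) divided by library instead. NONMMUT043929.2 had 82.7, 78.5, 36.8 and 43.8 counts in control sperm but 0 and 106 in cadmium sperm, while NONMMUT043928.2 stayed under 1 count in control sperm and had 82 and 0 in cadmium sperm. The gene NONMMUG027107.2 had 82 and 106 counts in the cadmium sperm samples, so that 1 transcript took the reads in each. NONMMUT053912.2 (1643 bp) of NONMMUG033430.2 likewise had 116 and 0.10 counts in cadmium sperm, and NONMMUT053913.2 (1646 bp) had 0.16 and 45.1. In testes the counts of NONMMUG033430.2 went to NONMMUT119211.1 (886 bp), with 97.0 and 19.3 in control and 108 and 22.6 in cadmium testes.

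NONMMUT010591.2 (1517 bp) was the minor partner of NONMMUT010592.2 (1516 bp), with 104, 39.8 and 40.05 against 1027, 409 and 489 counts in pools 2 to 4. The gene NONMMUG006660.2 had 3684 and 1879 counts in cadmium sperm and 215 and 290 in cadmium testes, so gene and transcript were both higher in sperm. NONMMUT012231.2 and NONMMUT084421.1, both members of the 92 and both 1390 bp long, had identical values in every library, such as 80 counts each in pool 2 of a gene total of 160, and they count as 1 measurement. NONMMUT003978.2 and NONMMUT079382.1, both 3010 bp, were equal in pools 1, 3 and 4 (37.5, 40.5 and 21.5 counts each), but NONMMUT003978.2 took all 83 counts in pool 2. Values of these 7 lncRNAs are therefore uncertain at the level of the transcript. Such uncertainty is not confined to them, since 45 of the 92 had a fractional count in pools 2 to 4. NONMMUT105589.1, the only listed transcript of its gene, had 20.3, 85.0 and 34.9 counts there, and a gene sum does not settle such sharing.

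**Figure D4:**
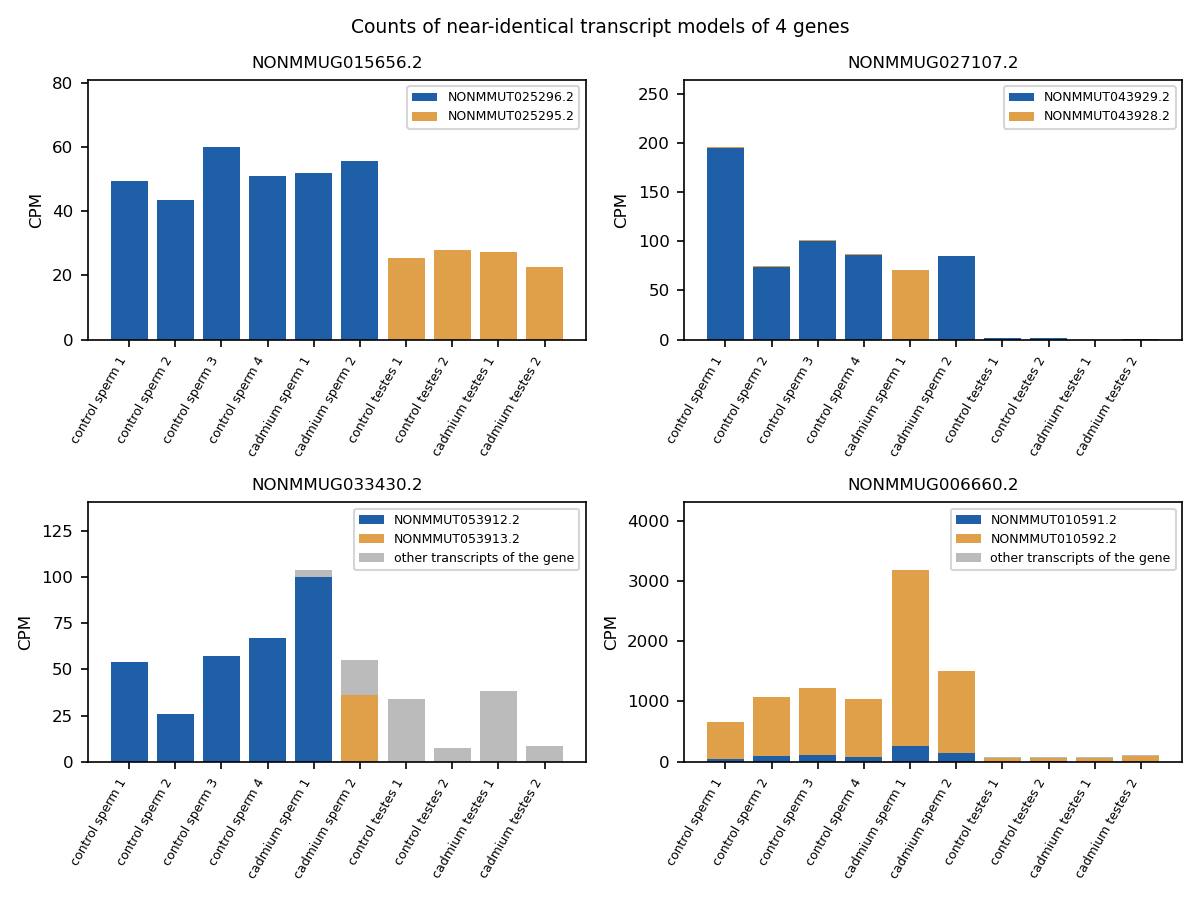
Each panel is 1 gene, each bar 1 library, and bar height is CPM, with the lncRNA of the 92 in blue, the transcript within 10 bases of its length in orange and any other transcript of the gene in grey. In NONMMUG015656.2 the colour changes between sperm and testes, in NONMMUG027107.2 it changes in cadmium sperm sample 1, in NONMMUG033430.2 in cadmium sperm sample 2, and in NONMMUG006660.2 both colours are higher in sperm.

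The next question was whether cadmium sperm differed from control sperm. Pools 2 to 4 chose the lncRNAs as high, which favours falls, so the counts that follow are a description. Of the 92, 1 was called lower in cadmium sperm and 0 higher in edgeR's test, where 0.142% of the 21865 transcripts tested were called lower (31) and 0.0823% higher (18). That background turned with the fit: limma on log2(FPKM + 0.1) called 5 transcripts lower and 1343 higher, and none of the 92. DESeq2 called 0 of the 92, and 4 had an unadjusted p under 0.05 in edgeR. Log2 differences lay between -2.62 and 1.16, their median being 0.06, beside a median of 0.37 over all transcripts, with 54 above 0 and 38 below. Both cadmium samples lay above pools 2 to 4 in CPM for 13 lncRNAs and below them for 8, and the groups overlapped for 71, where 21.8% of all transcripts tested lay above and 1.87% below. The summed share of the 92 was 1.52% ± 0.348 in pools 2 to 4 (SD, n = 3) and 1.59% ± 0.00622 in cadmium sperm (SD, n = 2), a gap smaller than the spread of the pools.

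NONMMUT027011.2, the leading lncRNA, was the 1 called lower. It stood at 253, 488 and 697 CPM in pools 2 to 4 and at 70.1 and 117 CPM in cadmium sperm, a log2 difference of -2.25 ± 0.58 (adjusted p = 0.0490). Pool 1, which was not in this test, stood at 207 CPM, also above both cadmium samples. The call was lost in 12 of 13 alternative fits, with adjusted p from 0.0101 to 1 over the 13 and log2 differences from -2.76 to -1.35. It was lost without any 1 of the 5 libraries and with pool 1 added (adjusted p = 0.203).

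The other 4 of the 5 lowest log2 differences did not pass. NONMMUT071523.2 (1438 bp) had 34, 35 and 43 counts in pools 2 to 4, 50 in pool 1, and 7 and 18 in the deeper cadmium sperm samples, a log2 difference of -2.62 ± 1.01 (adjusted p = 0.542). NONMMUT011706.2 (1457 bp) stood at 66.2, 202 and 84.6 CPM in pools 2 to 4 and at 38.9 and 31.1 CPM in cadmium sperm, a log2 difference of -1.66 ± 0.78 (adjusted p = 0.542). In both, each cadmium sample lay below all 4 control pools. NONMMUT050002.2 also lay below pools 2 to 4 but not below pool 1, and NONMMUT123580.1 overlapped the pools, with log2 differences of -1.21 ± 0.91 and -1.24 ± 0.66.

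Among the 5 highest log2 differences, NONMMUT026815.2 stood at 215, 109 and 158 CPM in pools 2 to 4, at 324 CPM in pool 1 and at 419 and 334 CPM in cadmium sperm, a log2 difference of 1.16 ± 0.55 (adjusted p = 0.542). NONMMUT039642.2 (1760 bp) had 123, 101 and 61.2 CPM in pools 2 to 4, 33.0 CPM in pool 1 and 163 and 259 CPM in cadmium sperm (log2 difference 1.16 ± 0.61, adjusted p = 0.749). NONMMUT130576.1 (1868 bp) and NONMMUT010591.2 lay above pools 2 to 4 in both cadmium samples as well, with log2 differences of 1.06 ± 0.60 and 1.04 ± 0.62. NONMMUT003978.2, at 1.15 ± 0.65, overlapped them. None of these 5 passed the test. For NONMMUT003978.2, another transcript of equal length, NONMMUT079382.1, had 0, 40.5 and 21.5 counts in pools 2 to 4 and 0 in both cadmium sperm samples. Their gene had 83, 81 and 43 counts in pools 2 to 4 and 100 and 294 in cadmium sperm. The part of this division in the fitted rise was not tested.

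**Figure D5:**
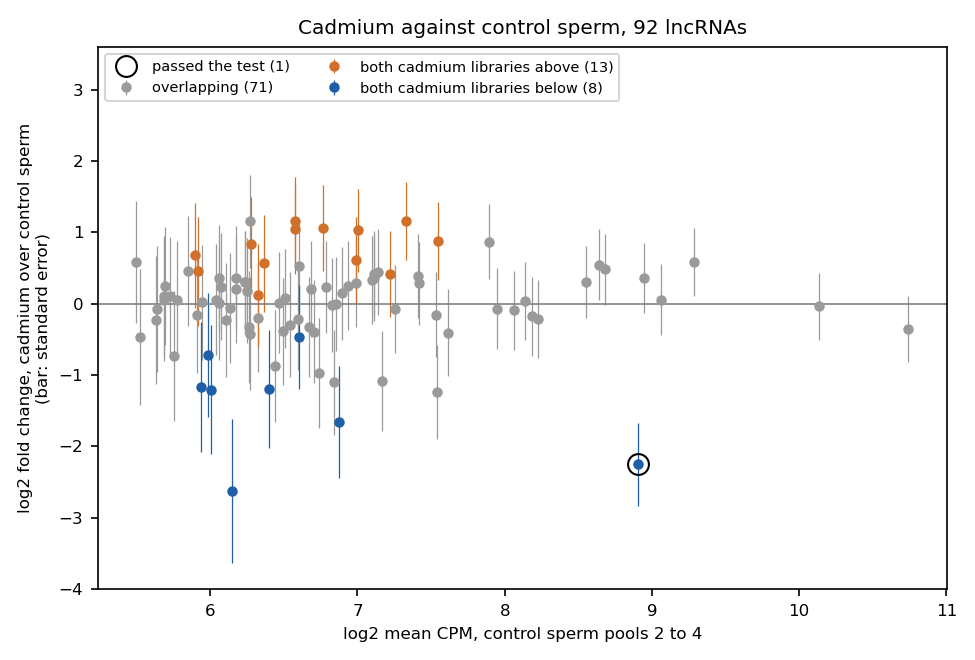
The horizontal axis is log2 mean CPM over control sperm pools 2 to 4, the vertical axis is the log2 fold change of cadmium over control sperm in edgeR, bars are its standard error, and colour marks whether both cadmium samples lay above (13), below (8) or overlapped (71) the 3 pools. Most of the 92 points lie within 1 of the zero line, and the ringed point is NONMMUT027011.2.

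In testes the control samples chose the lncRNAs as low, which favours rises. Of the 92, 58 reached 1 FPKM in 2 of the 4 testes libraries, and edgeR called 0 of them, as it did 0% of the 28423 transcripts tested (345 of these had an unadjusted p under 0.05, and DESeq2 called 15 higher and 11 lower). None of the 58 had an unadjusted p under 0.05, and DESeq2 called none. Log2 differences ran from -1.52 for NONMMUT123806.1 to 2.54 for NONMMUT087277.1, with a median of 0.21 against 0.02 over all transcripts. Over all 92, mean CPM was higher after cadmium for 56, lower for 32 and equal for 4. Counts are too low here for small differences to be detectable.

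Of the 14 lncRNAs with at least 20 counts in a cadmium testes sample, 2 reached that in both: NONMMUT032187.2, with 33.7 and 32.6, and NONMMUT062267.2, with 28.9 and 26.1 after 0 and 10.5 in control testes. The gene of NONMMUT062267.2 did not rise in both samples, with 119 and 67.9 counts in control and 129 and 41.3 in cadmium testes. Its transcript NONMMUT062265.2 (4434 bp) had 119 and 57.4 in control and 96.6 and 8.94 in cadmium testes. The highest testes count of the 92 was 36, for NONMMUT056904.2 (4176 bp) in cadmium testes sample 2, which had 0 in sample 1 and 0 and 3 in the controls. NONMMUT068484.2, with 28 against 2 counts, and NONMMUT010451.2, with 32 against 6, were likewise high in cadmium testes sample 2, the library with the highest sum of epididymal genes. The part of epididymal tissue in these counts was not tested.

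The 92 were 223 to 9801 bp long, the median being 1772 bp. The comparison set had a median of 1981 bp and all known lncRNAs of the series 1266 bp. Transcripts over 3000 bp made up 21.7% of the 92, 26.1% of the comparison set and 13.8% of all known lncRNAs. The longest, NONMMUT035118.2 (9801 bp), was also the lowest by FPKM, at 6.24 ± 1.57 (SD, n = 3).

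The limits were sharp where the counts were not. Another 25 known lncRNAs were under 20 in testes and had a lowest count of 15 to under 20 in pools 2 to 4, and 17 had at least 20 in the pools and a highest control testes count of 20 to under 25. Just inside stood NONMMUT122905.1 and NONMMUT127905.1 with a lowest sperm count of 20, and NONMMUT032807.2 with a testes count of 19.9. Just outside stood NONMMUT047726.2, NONMMUT033961.2, NONMMUT021340.2 and NONMMUT033652.2 with a lowest sperm count of 19, and NONMMUT025280.2, NONMMUT122054.1 and NONMMUT077249.1 with a testes count of 20. NONMMUT025494.2 (410 bp, NONMMUG015781.2), the transcript named Lnc2 in the study, was left out by its 21 counts in control testes sample 2. It had 692, 3426, 353 and 1539 counts in control sperm, 1220 and 1295 in cadmium sperm, 11 in control testes sample 1 and 15 and 20 in cadmium testes. Its level of 963 to 3238 CPM in control sperm put it among the highest of the lncRNAs near the limits.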

How the data were processed

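Libraries were made strand-specifically after RNase H removal of ribosomal RNA and read from both ends. For each sample the authors deposited a table of transcripts in which the expected count is an estimate of its fragments, not normalized, and FPKM is scaled by the authors to length and depth. The submitters' processing notes name HISAT and mm10 while the study's methods name SOAPaligner/SOAP2, and the tool behind the expected counts is not given in the sources used here. A transcript that a table did not list was taken as 0. The 92 lncRNAs, the marker lists and the tests were chosen with earlier results of these data known.

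CPM was the expected count per 1000000 counts of a library. Expected counts were rounded and tested across all transcripts with edgeR 4.0.16 in R 4.3.3 (quasi-likelihood test, TMM, Benjamini-Hochberg), after leaving out transcripts that did not reach 1 FPKM in 2 libraries of the comparison. A transcript was called at an adjusted p under 0.05 and over 2-fold. The SE of a log2 difference is its size divided by the square root of F. The groups hold 2 or 3 samples, and p-values measure the spread between these only. The test was checked on simulated counts. DESeq2 1.42.0, limma 3.58.1, other scalings, no filter, gene sums, libraries left out and a replicate block were alternatives, and adding pool 1 to the sperm side was chosen after seeing the data. Named are the 12 highest by mean FPKM in control sperm pools 2 to 4, the 6 smallest adjusted p and the 6 highest in cadmium testes, the 5 largest rises and 5 largest falls in cadmium sperm, the 5 highest and 5 lowest in pool 1, those nearest the limits, and any that the study names. Others were chosen after their values were seen. Replicate numbers were taken from the labels. Figures were drawn with matplotlib 3.10.9.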

Additional observations from a re-analysis of the deposited data

Results flagged for a closer look

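In the 4 control sperm pools, 36 lncRNAs named by rule and the summed share of the 92 were examined for a sample far from the others by Dixon's ratio of the gap to the range at its 95% critical value for 4 samples, and 3 lncRNAs passed. Of the 36, 10 were named because pool 1 was high or low against the other pools, so the chance rate of about 1 in 20 does not apply to them. The other 26 held 2 of the 3. NONMMUT025860.2 was low in pool 3, at 357 CPM, while the other pools lay between 752 and 768 CPM (ratio 0.962). NONMMUT070272.2, named for its level in pool 1, was high there, at 845 CPM, against 383 to 434 CPM in the others (ratio 0.890). NONMMUT087708.1 was high in pool 3, at 191 CPM, against 101 to 114 CPM (ratio 0.862). Its gene was not apart in pool 3, at 101, 165, 213 and 224 CPM in pools 1 to 4. The other transcript of the gene, NONMMUT087709.1 (280 bp), had 0, 62.9, 8 and 56.2 counts in these pools.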

How the results depend on the processing

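The number of lncRNAs called higher in cadmium sperm than in cadmium testes was 90, and between 80 and 92 with other scalings, tests and filters, with gene sums, with the spread shared with pool 1 or with pool 1 added to the sperm side. Leaving out 1 library gave from 0 to 90. The 0 came without cadmium testes sample 1, where 0 of the 20462 transcripts tested passed. Of the 92, 76 were called in every alternative that tested them, that one and gene sums apart. Without cadmium sperm sample 1, and likewise without sample 2, only 68 of the 92 passed the filter and were tested, which limits how many could be called. Among the named, NONMMUT053413.2 lost its call with limma at either pseudocount and without cadmium sperm sample 2, NONMMUT032187.2 with limma on log2(FPKM + 0.1), and both with pool 1 added, as did NONMMUT106294.1 (log2 difference 3.24, adjusted p = 0.0505). The median over all transcripts tested was -0.29 with TMM, -0.31 with DESeq2's size factors and -0.55 with total counts. With TMM 4127 transcripts were called higher and 3786 lower, with total counts 2804 and 2601, and with limma on log2(FPKM + 1) 2991 and 5242. Between cadmium and control sperm, 18 transcripts were called higher and 31 lower with TMM, against 1343 and 5 with limma on log2(FPKM + 0.1). For cadmium against control sperm the 1 lncRNA called lower became 0 with DESeq2's size factors, DESeq2, limma at either pseudocount, no filter or pool 1 added, and leaving out 1 library gave 0 to 1. The 1 without cadmium sperm sample 2 was NONMMUT043929.2. In testes, leaving out 1 library gave 0 to 1 called higher, the 1 being NONMMUT062267.2 without control testes sample 2. The count of 75 lncRNAs with the sperm pattern after cadmium was 46 at a limit of 10 counts, 70 at 50 counts and 68 on gene sums. With the replicate block 90 lncRNAs were called higher in cadmium sperm than in cadmium testes, 0 were called in testes, and the call in cadmium sperm (all 4 pools in the fit) went from 1 to 0. The deviations of same-numbered samples had a correlation of 0.079 between cadmium sperm and testes and 0.411 between cadmium and control testes, over 2 pairs each, and the labels do not say that a number marks a shared animal or batch. Depth limits the testes values, where 3 counts were 1.05 to 1.15 CPM.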
